A study of Mus musculus with 6 samples.

Results

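Ferroptosis is a form of cell death driven by iron and by the peroxidation of membrane phospholipids. The 10 genes described here set how readily a cell enters it, and they were chosen by name: Gpx4, Slc7a11, Aifm2, Acsl4, Lpcat3, Tfrc, Fth1, Ftl1, Ncoa4 and Slc40a1. Values were found for 9 of the 10, among 16472 genes in all, and the expression of Slc40a1, the iron exporter ferroportin, was not analysed here. The libraries came from HT22, a line of immortalised hippocampal cells from the mouse in which glutamate in the medium blocks cystine uptake and kills by oxidative damage. One group of 3 libraries received AA147, a small molecule known to switch on ATF6 and the antioxidant regulator NRF2, at a dose the labels give as 10 mM, and the other 3 received its DMSO vehicle. Both groups were collected after 16 h from the same medium with serum, no glutamate challenge is named for either, and the labels do not say whether the libraries came from separate cultures, so p-values may measure technical spread alone.

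The source of every value is the authors' deposited table, a comparison of the groups that gives each gene 1 mean over the 6 libraries and 1 fold change. Whether the groups overlap library by library could therefore not be seen, and the error of each value is the authors' standard error (SE). The table does not name the numerator of its fold changes. They are read here as AA147 over vehicle, and with the opposite reading every sign below turns. A gene counted as called when its adjusted p was under 0.05.

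Slc7a11 brings in cystine for glutathione, with which the selenoenzyme Gpx4 reduces phospholipid peroxides, while Aifm2 (FSP1) protects membranes through ubiquinone. Acsl4 and Lpcat3 load polyunsaturated fatty acids into phospholipids and so supply what can be peroxidised. Tfrc takes up transferrin-bound iron, Fth1 and Ftl1 form the ferritin shell that stores it, Ncoa4 carries ferritin to lysosomes for release, and Slc40a1 exports iron. Iron also acts on several of these mRNAs through the iron responsive element, a small hairpin with a CAGTGN loop (written in DNA letters) that binds iron regulatory proteins when iron is scarce. Bound near the start of an mRNA it blocks translation, and bound behind the coding part it protects the mRNA from decay.

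The hairpins are shown first because the 3 members that carry them and have a value are also the 3 with a called positive fold change. The search required a C, 5 bases, the loop CAGTGN, and 5 bases that pair with the first 5. Each line gives 30 bases of the GENCODE M39 reference transcript, read from 5′ to 3′, with that C and the loop in capitals.
Fth1, 5′ UTR: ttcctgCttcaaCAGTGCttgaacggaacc
Ftl1, 5′ UTR: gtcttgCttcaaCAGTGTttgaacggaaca
Tfrc, 3′ UTR, element 1: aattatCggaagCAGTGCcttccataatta
Tfrc, 3′ UTR, element 2: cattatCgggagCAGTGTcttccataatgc
Tfrc, 3′ UTR, element 3: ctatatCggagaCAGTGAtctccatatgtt
Tfrc, 3′ UTR, element 4: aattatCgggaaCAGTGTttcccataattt
Slc40a1, 5′ UTR: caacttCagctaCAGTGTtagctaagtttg

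The loop began 98 bases after the transcript start in Fth1, 89 in Ftl1 and 177 in Slc40a1. In Tfrc the 4 loops lay between 3331 and 3822 bases from the start, in a 3′ UTR of 2458 bases. No match was found in the other 6 members, Gpx4, Slc7a11, Aifm2, Acsl4, Lpcat3 and Ncoa4, also when 1 unpaired position was allowed. Of 21574 coding reference transcripts, 24 (0.111%) held a match in the 5′ UTR and 124 (0.575%) in the 3′ UTR. Tfrc was the 1 transcript with 3 or more in its 3′ UTR.

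**Figure D1:**
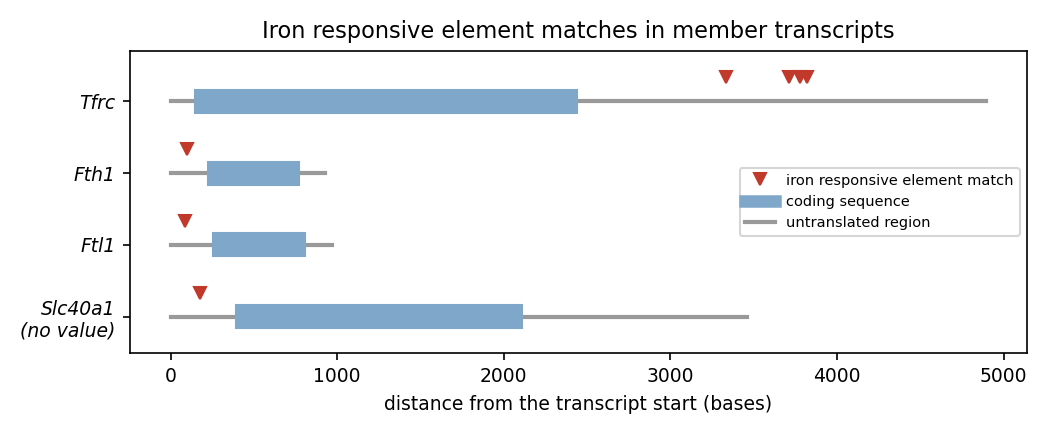
Transcripts of the 4 members with an iron responsive element match, drawn to scale by distance from the transcript start in bases. Triangles mark the loops, which lie before the coding sequence in Fth1, Ftl1 and Slc40a1 and behind it in Tfrc.

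Ferritin and the transferrin receptor were higher with AA147 on this reading, with ratios of 1.41 to 1.49. Of the 9 members, 3 were called positive and 1 negative. Of the 13597 genes with an adjusted p, 9.05% were called positive and 11.1% negative, 20.2% in all. The positive members were Fth1, Tfrc and Ftl1, the negative one was Lpcat3, and the other 5 were not called. The median log2 fold change of the 9 was 0.04, beside 0.01 over all genes tested. All 9 had means of at least 100, a range in which 23.8% of genes were called.

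**Figure D2:**
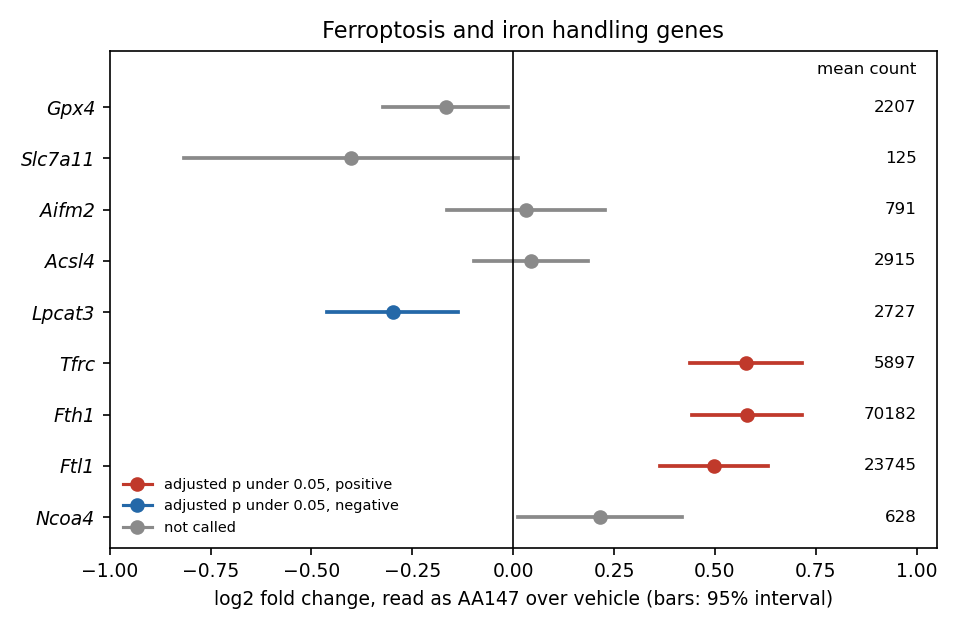
Log2 fold change of each member (points) with its 95% interval (bars), read as AA147 over vehicle, with the mean normalized count at the right. Fth1, Tfrc and Ftl1 lie between 0.50 and 0.58 with intervals well above 0, and Lpcat3 lies at -0.30 below it.

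Fth1, the ferritin heavy chain that oxidises iron on entry, was the most abundant member and ranked 26 of all genes, with a mean of 70182 normalized counts in the authors' deposited table. Taken at face value with equal groups, its mean and fold change correspond to 56273 normalized counts with vehicle and 84092 with AA147. The log2 fold change of Fth1 was 0.58 in the authors' deposited table (SE 0.070, DESeq2 adjusted p 9.31e-15). That is a ratio of 1.49, with a 95% interval of 1.36 to 1.64.

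Ftl1, the ferritin light chain that helps the iron core form, had a mean of 23745 in the authors' deposited table and ranked 119. At face value it went from 19683 normalized counts with vehicle to 27808 with AA147. Its log2 fold change in the authors' deposited table was 0.50 (SE 0.068, DESeq2 adjusted p 1.36e-11), a ratio of 1.41 with an interval of 1.29 to 1.55. The intervals of the ferritin chains overlap widely, and their difference was not tested because the table gives no covariance between genes. Ferritin chains have many retrocopies, and single counts depend on how the authors placed shared reads. Outside the Ftl1 gene, GRCm39 held 15 matches to at least 50% of its transcript at 85% identity or more, the closest at 99.5%, while Fth1 had 2, the closest at 89.8%.

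Tfrc, the receptor that brings in iron on transferrin, had a mean of 5897 in the authors' deposited table. Face-value levels were 4733 normalized counts with vehicle and 7061 with AA147. The log2 fold change of Tfrc was 0.58 in the authors' deposited table (SE 0.071, DESeq2 adjusted p 1.99e-14), a ratio of 1.49 with an interval of 1.36 to 1.64. Uptake and storage transcripts thus differed in the same direction. Their hairpins sit at opposite ends of the mRNA, and the part of the hairpins in these differences was not tested. The 5′ hairpin is known to act on translation, which mRNA counts do not measure.

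Ncoa4, the receptor that delivers ferritin to the lysosome, had a mean of 628 and a log2 fold change of 0.22 in the authors' deposited table (SE 0.103), and it was not called (DESeq2 adjusted p 0.131). The interval, 0.01 to 0.42 before any adjustment, overlaps that of Ftl1, 0.36 to 0.63, and ends below that of Fth1, 0.44 to 0.72. Ncoa4 has 1 near-identical copy elsewhere in GRCm39, at 99.9% identity.

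Lpcat3, which places polyunsaturated acyl chains into phospholipids, was the called member with a negative value. Its mean was 2727 and its log2 fold change -0.30 in the authors' deposited table (SE 0.083, DESeq2 adjusted p 0.00302). Face-value levels were 3008 normalized counts with vehicle and 2445 with AA147, a ratio of 0.81 with an interval of 0.73 to 0.91. The call was lost under a Bonferroni adjustment. The libraries carry no strand information, and 970 bases of the Lpcat3 transcript, 41.0% of it, are also exon of Emg1 on the opposite strand. Emg1, looked up for this overlap, had a mean of 2916 and a log2 fold change of -0.20 in the authors' deposited table (SE 0.069, DESeq2 adjusted p 0.0272). Reads from the shared stretch cannot be assigned to either gene, and the part of Emg1 in the Lpcat3 value was not tested. Other members also share bases with opposite-strand exons. These were 338 of 929 bases in Fth1 (Gm36913), 355 of 969 in Ftl1 (Gm10252) and 228 of 959 in Gpx4 (Gm65896). Smaller overlaps were 115 bases in Ncoa4, 100 in Acsl4 and 7 in Aifm2. The part of these genes in the members' values was not tested either.

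Acsl4, the ligase that activates arachidonic acid for the same pathway, had a mean of 2915 and a log2 fold change of 0.04 in the authors' deposited table (SE 0.072, DESeq2 adjusted p 0.741). Its interval ran from -0.10 to 0.19, which leaves out a change as large as that of Lpcat3. The sign of Acsl4 turned, to -0.04, when a trend on transcript length, GC content and expression was subtracted.

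The 3 members that prevent or repair lipid peroxidation were not called. Gpx4 had a mean of 2207 and a log2 fold change of -0.17 in the authors' deposited table (SE 0.079, DESeq2 adjusted p 0.125). The interval, -0.32 to -0.01 before adjustment, lay wholly below 0, and the adjustment over all genes ended the call. Aifm2 had a mean of 791 and a log2 fold change of 0.03 in the authors' deposited table (SE 0.100, DESeq2 adjusted p 0.877), with an interval from -0.16 to 0.23. Gpx4 has 2 copies elsewhere in GRCm39, the closest at 99.7% identity.

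Slc7a11, the cystine carrier of system xc-, was the least abundant member, with a mean of 125 normalized counts. Its log2 fold change was -0.40 in the authors' deposited table, with an SE of 0.211 and a DESeq2 adjusted p of 0.179. The interval of -0.82 to 0.01 is the widest of the 9. At the largest p that was still called, an SE of this size needs an absolute log2 fold change of 0.54, against 0.18 for Fth1. An estimate for Slc7a11 smaller than this, in either direction, would not be called at this SE.

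**Figure D3:**
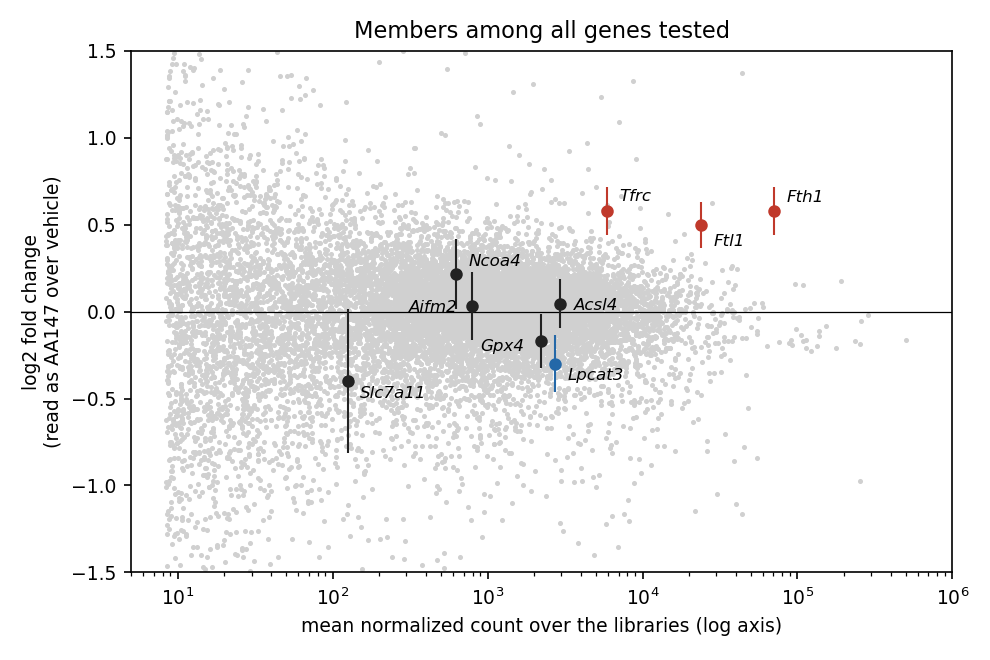
Log2 fold change (read as AA147 over vehicle) against the mean normalized count on a log axis for the 13597 genes tested (grey), with the members and their 95% intervals in colour or black. The 140 genes beyond 1.5 on either side are outside the plot, and Fth1, Ftl1 and Tfrc lie in the upper part of the cloud for their abundance.

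Against genes of like abundance, the 3 positive members and Lpcat3 stood toward the edge. Of the 200 genes nearest in mean, 96% had a smaller absolute fold change than Tfrc, 91% than Lpcat3 and 89.5% than Ftl1. For Fth1 the share was 88%. As Fth1 ranked 26, few genes lay above it, so its neighbours were fewer than 200 and mostly of lower mean. For Acsl4 and Aifm2 the shares were 20.5% and 14.5%. The members' SEs were 0.96 to 1.19 times the median of those neighbours.

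Levels of different genes were compared per kb of the reference transcript. Fth1 led with 75546 normalized counts per kb, followed by Ftl1 with 24505, Gpx4 with 2301, Tfrc with 1205 and Lpcat3 with 1153. Acsl4 had 540.0, Aifm2 249, Ncoa4 140.0 and Slc7a11 13.6 normalized counts per kb. The heavy chain of ferritin stood 3.08 times above the light chain by this measure, but 1.39 times with the longest transcript of each gene and 3.21 times with the median of coding transcripts. The cystine carrier stood lowest of the 9. The places between them depend on the length: with the longest transcripts Lpcat3, at 485, fell below Acsl4, at 506, and Aifm2, at 120.9, lay just below Ncoa4, at 121.2. The table gives no spread over libraries for any of these levels, so it was not tested which neighbours in the order differ.

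**Figure D4:**
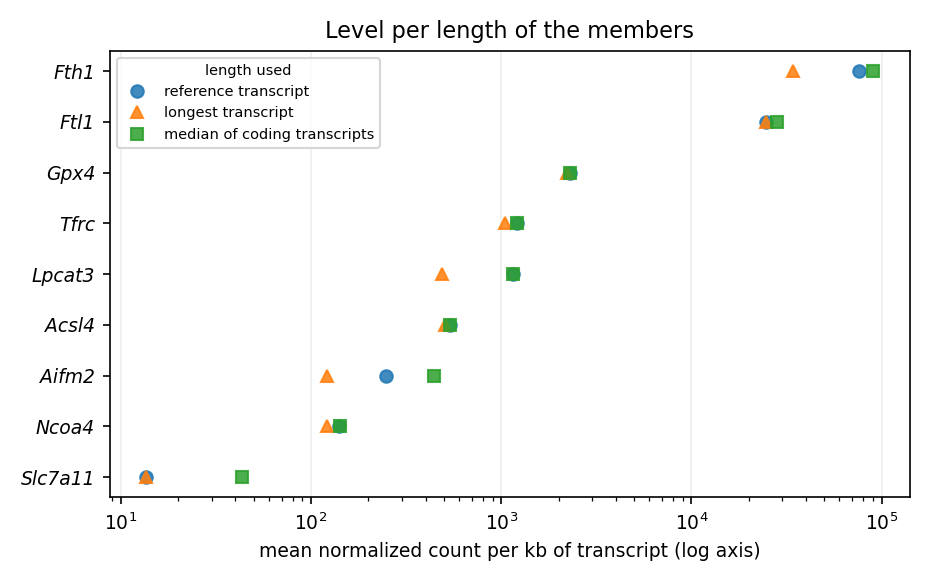
Mean normalized count per kb of transcript (log axis) for each member, with 3 choices of transcript length as separate symbols. Fth1 is highest and Slc7a11 lowest with each of the 3, while Aifm2 and Lpcat3 shift most with the length chosen among the genes between them.

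The surrounding pathways were read from 10 lists with 136 genes besides the members. Values were found for 113, and 112 had an adjusted p. Of these, 20 were called positive and 13 negative, 29.5% in all, against 20.2% of all genes and 23.8% of genes with a mean of at least 100. Their median log2 fold change was 0.04.

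Cystine supply and glutathione synthesis held calls in both directions. Of 11 genes tested, 4 were called positive, 4 negative and 3 were not called. The positive ones belong to synthesis, turnover and export: Ggct at 0.73, Gclm at 0.63, Abcc1 at 0.33 and Gclc at 0.32 in the authors' deposited table. Ggct was close to the limit, with a mean of 79.0 and a DESeq2 adjusted p of 0.0476. Gclc and Gclm are the catalytic and modifier subunits of the rate-limiting enzyme of glutathione synthesis. The negative ones include Cth, which makes cysteine from cystathionine, at -0.65, and the amino acid carriers Slc3a2 at -0.50 and Slc1a5 at -0.43 in the authors' deposited table. Slc3a2 is the heavy chain that Slc7a11 needs to reach the membrane, and its mean was 9789.

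Lipid peroxide defence outside glutathione was divided as well, with 6 of 18 genes called positive and 4 negative. Nqo1 at 0.93, Txnrd1 at 0.67, Prdx1 at 0.56 and Sqstm1 at 0.45 led the positive side in the authors' deposited table. The first 3 are redox enzymes known as NRF2 targets. Acsl3 at -0.31, Scd1 at -0.29, Scd2 at -0.23 and the ubiquinone synthesis gene Coq6 at -0.23 were called negative in the authors' deposited table. Acsl3 and the Scd desaturases make and activate monounsaturated fatty acids, which displace oxidisable ones from phospholipids. The list median was -0.11.

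Among 21 genes that supply or oxidise polyunsaturated phospholipids, 4 were called positive, 1 negative and 16 were not called. Ptgs2, cyclooxygenase 2, whose mRNA is often used as a marker of ferroptosis, had a log2 fold change of 1.31 in the authors' deposited table (SE 0.095, mean 1953). RNA libraries do not measure cell death or lipid peroxides, and whether ferroptosis took place in either group was not tested. Sat1, a polyamine acetyltransferase, lay at 0.48 and Vdac2 at 0.19 in the authors' deposited table. Aloxe3, an epidermal lipoxygenase, had the largest value of these lists, 2.15, but a mean of only 18.9 and an SE of 0.55 in the authors' deposited table. Elovl5, which elongates polyunsaturated fatty acids, was negative at -0.21 in the authors' deposited table.

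Selenocysteine insertion, on which Gpx4 protein depends, gave 1 positive and 1 negative call among 9 genes. Pstk, which phosphorylates the seryl-tRNA of this pathway, lay at 0.40 and Sephs2, which makes its selenium donor, at -0.21 in the authors' deposited table.

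The remaining iron genes moved in both directions or were not called. In the uptake list, 2 of 11 genes were called positive and 1 negative. Slc11a2, the iron carrier DMT1, and Cd44 both lay at 0.20, and Slc39a8, a zinc, manganese and iron importer, at -0.78 in the authors' deposited table. Iron export had 4 genes tested and 2 called negative. These were Cp, the ferroxidase ceruloplasmin, at -0.95 (SE 0.072, mean 4806) and the heme exporter Abcg2 at -0.34 in the authors' deposited table. Heme handling had 3 of 6 genes called positive, Blvrb at 1.09, Slc48a1 at 0.82 and Hmox1 at 0.30 in the authors' deposited table, with Abcg2, which stands in both lists, the negative one. Hmox1 frees iron from heme, and Slc48a1 moves heme out of the lysosome.

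No call was made in 3 iron lists by the authors' DESeq2 test. None of the 5 iron storage and chaperone genes besides ferritin was called, with values from -0.02 to 0.09 and 0 with an unadjusted p under 0.05. Herc2, named after its values were seen, had the widest interval of them, -0.46 to 0.62. Among the 7 genes of the iron regulatory system, which includes the hairpin-binding proteins Aco1 and Ireb2 and their sensor Fbxl5, the range was -0.07 to 0.16 and 1 had an unadjusted p under 0.05. The 21 genes of mitochondrial iron and iron-sulfur clusters ran from -0.29 to 0.44, with 3 at an unadjusted p under 0.05. Their median was -0.03.

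**Figure D5:**
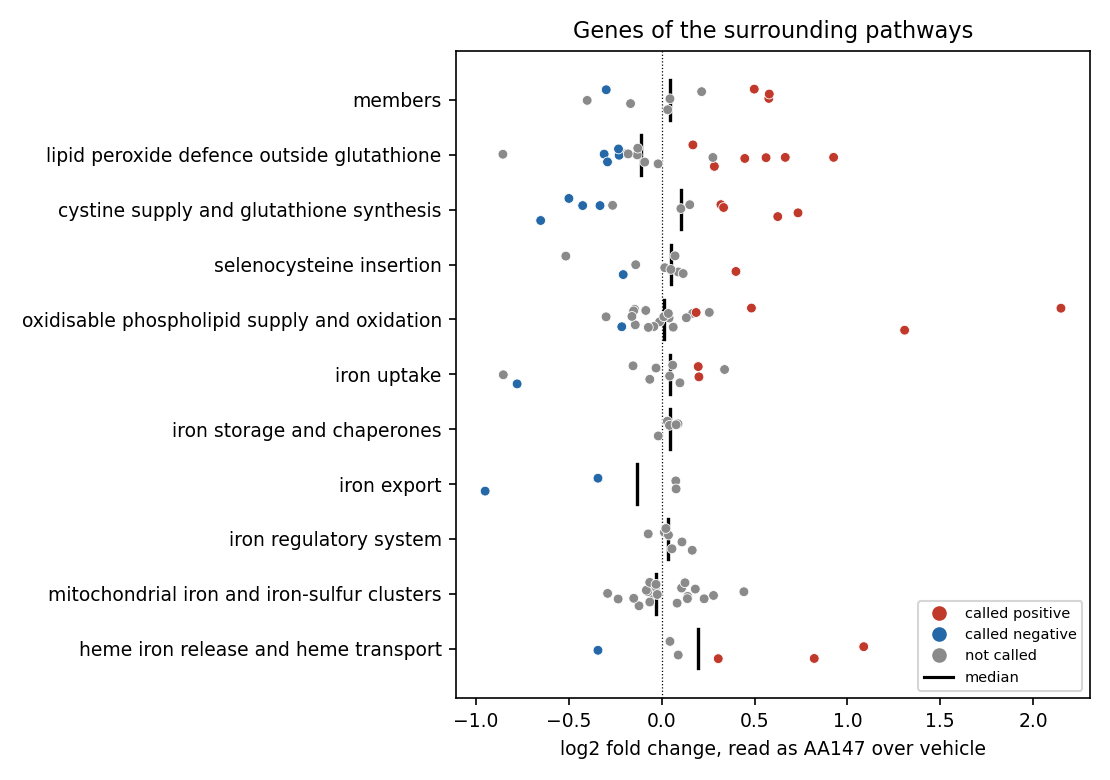
Log2 fold change (read as AA147 over vehicle) of each tested gene in the members and in the 10 surrounding lists, coloured by call, with the median of each list as a black line. Cystine supply and glutathione synthesis shows 4 called genes on each side of 0, and the mitochondrial iron list shows none.

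Genes with a hairpin match were not called in 1 direction. Among the 15 tested genes with a match in the 5′ UTR, 4 were called positive and 1 negative, 33.3% in all. The share was 20.2% over all genes tested and 23.8% over those with a mean of at least 100. Fth1 and Ftl1, whose calls are given above, are 2 of the 4, so the 33.3% is not independent of them. The others, named after their values were seen, were Aunip at 0.33, Nasp at 0.17 and the negative Nfib at -0.45 in the authors' deposited table. Among 76 tested genes with a match in the 3′ UTR, 7 were called positive, Tfrc among them, and 11 negative. That is 23.7% in all and near the 20.2% of all genes. A match of letters is no proof of a working hairpin. Hairpins of another form, or in other transcripts of a gene, would be missed by this search.

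NRF2 binds the antioxidant response element, whose core was searched as TGACNNNGC on both strands of RefSeq promoter windows (GRCm38.p6, 250 bases before to 50 after each start). Windows were found for 9 members, all but Slc40a1, and 1 of these, Ncoa4, held the core, 44 bases before 1 of its starts. Over all genes in the table of promoters, 14% held it. Fth1, Ftl1 and Tfrc had no match, which says only that these letters are not in those windows.

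Of 12 neuronal markers, 3 had a value: Tubb3 with a mean of 1199, Eno2 with 62.1 and Slc17a7 with 3.93 in the authors' deposited table, while Rbfox3, Map2 and Snap25 were among the 9 not analysed here. Tubb3 was called positive, at 0.43, and Eno2 was not called, at -0.30, in the authors' deposited table. Slc17a7 had no adjusted p. Glial and microglial markers had values for 2 of 8, the higher 48.0 for Csf1r. Csf1r was called positive, at 0.95 (SE 0.336), in the authors' deposited table. All 8 mesenchymal markers had values, with summed means of 637002, and 5 were called negative with a list median of -0.88. These 5 were Col1a1 at -1.52, Col3a1 at -1.11, Pdgfrb at -0.97, Col1a2 at -0.97 and S100a4 at -0.78 in the authors' deposited table. The 3 not called were Vim at -0.08, Thy1 at -0.03 and Acta2 at 0.01 in the authors' deposited table. The part of these markers in the members' differences was not tested. HT22 is a single line, and bulk libraries cannot tell fewer cells of a type from less RNA per cell.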

How the data were processed

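Non-stranded mRNA libraries were made from 6 samples of HT22, 3 per group, per the labels' protocols. The submitters' processing notes name DESeq2 and the mouse build mm9 with no version. The aligner, counter and annotation are not given in the sources used here. Per the file headers, the authors deposited a mean normalized count (a signal, not whole reads), a log2 fold change and its SE also in log2 units, a test score equal to their ratio, and p-value columns, raw and Benjamini-Hochberg adjusted. Of 16472 genes, 2875 had no adjusted p and stayed without a call. The means summed to 30768012. Depth per library is unknown.

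The members and lists were chosen with earlier results of these data known, so their counts are descriptions. Named genes were all members and, per list, at most 5 called genes in each direction with the largest absolute fold change, and the values of some of these are not reported here. Listed symbols were matched also by older RefSeq names (GRCm38.p6). Intervals are the log2 fold change ± 1.96 SE. Levels in each group at face value assume equal groups. Transcript lengths, UTRs and overlaps came from GENCODE M39 on GRCm39 and served for sequence and length only, since the counts use another build. Genome copies were found with BLAST 2.17.0. Calls under alternatives were recomputed with statsmodels 0.14.6, pandas 2.3.3 and SciPy 1.17.1 in Python 3.11.15, in code tested on simulated data. The trend was a robust regression over 9620 genes with a mean of at least 100 and a known length, 90.5% of such genes.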

Additional observations from a re-analysis of the deposited data

How the results depend on the processing

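No paired analysis was possible because only 1 line per gene was used, and for that reason leaving out each replicate in turn was not run. Under 8 alternatives, 66 of 72 member values kept their direction and their side of the threshold. Direction could turn only with centring on abundant or reference genes or with the trend, since the other alternatives reuse the deposited fold changes. Under the stricter thresholds, an uncalled member could not become called. With Bonferroni adjustment, Lpcat3 was no longer called (adjusted p 1) and 15 pathway genes remained past the threshold in place of 33. When the test asked for an absolute log2 change above 0.5, which is stricter by construction, 0 members were called with the authors' DESeq2 values, 0 had an unadjusted p under 0.05, and 5 pathway genes were called. Acsl4, not called under any alternative, reversed to -0.041 after subtraction of a trend on expression, GC content and length. The cause was not tested. The largest shift from centring or the trend was 0.16, for Fth1, which moved upward to 0.74. The highest level per kb was 5570 times the lowest with the reference transcript, 2510 with the longest transcript and 2099 with the median of coding transcripts, in each case Fth1 over Slc7a11. The looser core TGANNNNGC was held by 3 members and by 45% of all genes in the promoter table. Among the members, low counts limit the precision of Slc7a11 most.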
